A study of Mus musculus with 6 samples.

Results

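The rows of a single-cell count table of the mouse olfactory bulb read here, called the members below, were the receptors Notch1, Notch2 and Notch3, the ligands Dll1 and Jag1, and the transcriptional repressors Hes1, Hes5, Hey1 and Heyl. They were taken by name, and 9 of 9 were found among the 18560 genes of the table. The values are unique molecular identifiers (UMIs, each counting 1 captured RNA molecule), summed over the cells of a cell class, cluster and library and scaled to counts per 1000000 UMIs of the same cells (CPM). The 6 libraries came from C57BL/6NJ mice of 14 weeks, each from pooled animals. They were 2 control libraries labelled as not manipulated, 2 from mice with naris occlusion, and 2 from mice trained on odours, with 6 weeks of manipulation. In one passage the study instead describes its controls as the open side of occluded mice, and which of the descriptions holds for these libraries was not resolved here. The study describes the occlusion as unilateral, with the occluded side taken as the deprived sample. Its trained mice were also deprived of water and worked for a water reward. The olfactory epithelium adjoins the bulb, and the study states that some of its cells are among those sequenced.

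A Notch receptor is switched on when a Delta or Jagged ligand on a touching cell binds it. The receptor is then cleaved, and its intracellular domain enters the nucleus and joins the DNA-binding protein RBPJ at target genes, of which the Hes and Hey repressors are the best known. The pathway is known in the brain for keeping neural stem cells and astrocytes in their state, and in vessels for artery formation and for the upkeep of smooth muscle cells and pericytes, for which Notch3 is the characteristic receptor.

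The annotated set held 51426 cells in 12 classes and 38 whole-bulb clusters, of which 21746 also had 1 of 18 neuronal cluster names. Libraries held 6705 to 10570 annotated cells, 11841160 to 17065083 UMIs and a median of 1028 to 1723.5 UMIs a cell. Replicate 1 of each group carried Ddx3y UMIs and replicate 2 carried Xist UMIs, 20000 to 27904 against at most 5 in replicate 1, so each group held a library of either sex. Among annotated cells, 1461 barcode sequences occurred in more than 1 library. Classes are called as the authors named them: Mural (pericytes and vascular smooth muscle), EC (endothelial cells), OEC (olfactory ensheathing cells, the glia around olfactory axons), Astro (astrocytes), OPC (oligodendrocyte precursors), Mes (mesenchymal cells), MicroG (microglia), MyOligo (myelinating oligodendrocytes), Mono, Macrophage, Neuron and RBCs. The 5 markers of Astro, EC, Mural, Mes, OPC and MicroG had their highest summed level in the class of that name. The OEC list had its highest summed level in MyOligo, while its markers Npy (13171 CPM), Frzb (1364 CPM) and Apod (9216 CPM) were higher in OEC than in MyOligo or OPC.

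The genes lie on the GRCm38 (mm10) build at chr2:26457902-26503822 (Notch1), chr3:98013538-98150367 (Notch2), chr17:32120820-32166896 (Notch3), chr17:15367354-15376932 (Dll1), chr2:137081451-137116520 (Jag1), chr16:30065357-30067796 (Hes1), chr4:154960626-154962372 (Hes5), chr3:8663359-8667038 (Hey1) and chr4:123233556-123249870 (Heyl). RefSeq promoter windows of GRCm38.p6 were at hand for 6 of the 9 genes, all but Hes1, Hey1 and Heyl, which were not searched. In the 250 bases before each start, the RBPJ motif GTGGGAA, read on both strands (TTCCCAC on the other), was present in 1 of these 6, Hes5, against 5.42% of 32851 windows of all genes. The Hes5 window held it on both strands, as did 18 of all windows (0.0548%). Hey2, a repressor of the same family that was not among the 9 genes, held it on 1 strand. Notch2 and Nrarp, another pathway gene, held none in their windows, and both had OEC as their highest class, as did Hes5 and Hey2. The windows of Hes5 and Hey2 are shown because they held the motif. Capitals mark the motif. The first is the plus strand of chr4:154960673-154960922, and its motifs span 226 to 220 and 83 to 77 bases before the start. The second is the minus strand of chr10:30842784-30843033, with the motif 207 to 201 bases before the start. The start used for the Hes5 window lies inside the gene span given above, so the window overlaps that span. A match is a run of letters and not a measured site.
Hes5: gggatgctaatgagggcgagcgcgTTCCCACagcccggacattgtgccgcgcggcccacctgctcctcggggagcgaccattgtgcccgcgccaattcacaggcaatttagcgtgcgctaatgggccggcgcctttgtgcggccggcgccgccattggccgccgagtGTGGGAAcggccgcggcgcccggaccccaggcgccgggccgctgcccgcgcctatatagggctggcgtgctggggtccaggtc
Hey2: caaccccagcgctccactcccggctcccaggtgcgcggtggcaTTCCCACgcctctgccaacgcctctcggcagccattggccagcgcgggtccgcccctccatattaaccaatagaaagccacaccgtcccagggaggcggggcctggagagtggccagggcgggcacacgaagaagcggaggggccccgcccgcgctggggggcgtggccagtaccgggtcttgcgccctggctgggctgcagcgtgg

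Most of the 9 genes had their highest level in the vessel wall or in glia. Mural cells had the highest mean level of Notch1, Notch3, Jag1, Hes1 and Heyl, ensheathing cells that of Notch2 and Hes5, oligodendrocyte precursors that of Dll1, and astrocytes that of Hey1. For 7 of the 9 genes the same class was highest in every library, the exceptions being Hey1 (3 of 6 libraries) and Heyl (5 of 6). Neurons were 43.8% of annotated cells and held 50.3% of the Dll1 UMIs but only 6.3% to 9.0% of those of Hes1, Hes5 and Notch2. Clusters were made from the same cells and genes, so differences between classes are described without a test, and levels are compared for each gene across cells and not between genes.

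**Figure D1:**
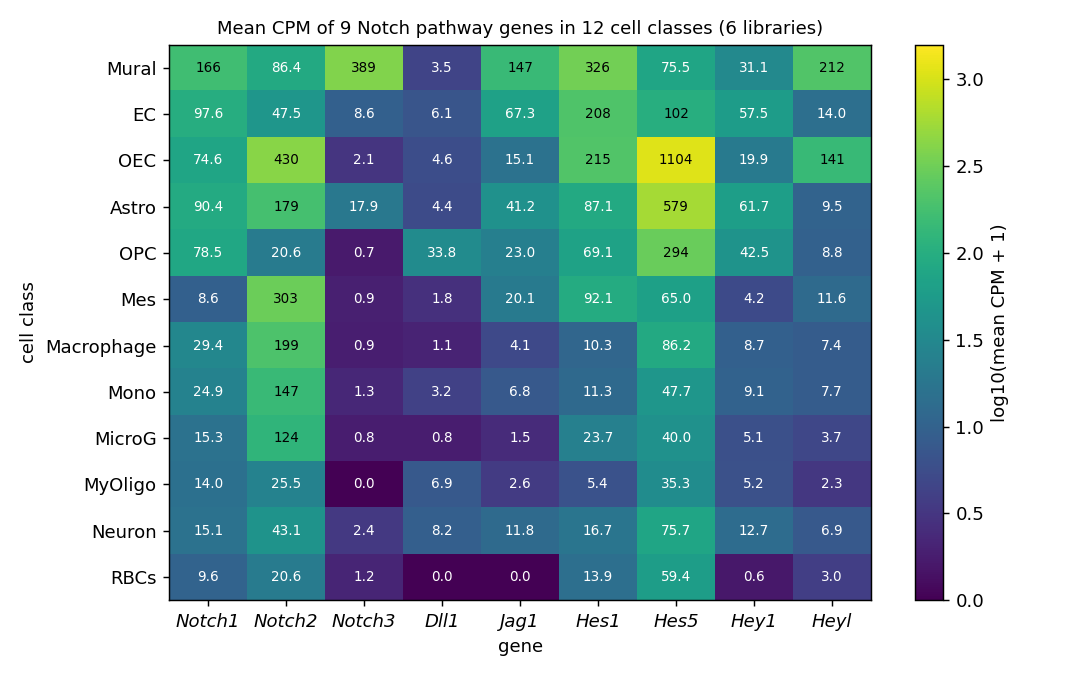
Mean CPM over the 6 libraries of the 9 genes (columns) in 12 cell classes (rows), with each value printed and coloured as log10(mean CPM + 1). Notch3 stood at 389 CPM in Mural cells and at 17.9 CPM in astrocytes, its next highest class, while Hes5 was above 290 CPM in OEC, Astro and OPC.

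Red blood cells, which lose their nuclei as they mature, gave a measure of free RNA. In their 219 cells (median 3894 UMIs) Hes5 stood at 59.4 ± 46.7 CPM (SD, n = 6 libraries), and 10.5% of these cells held a Hes5 molecule. A library held 11 to 80 of these cells and 54302 to 287916 of their UMIs, so the SD rests on few cells. Notch2 stood there at 20.6 ± 22.9 CPM, Hes1 at 13.9 ± 13.1 CPM and Notch1 at 9.6 ± 10.3 CPM, while Dll1 and Jag1 had no UMI, which allows a share of cells with a UMI of up to 1.37%. Hes5 levels of 35.3 to 102 CPM in myelinating oligodendrocytes, microglia, monocytes, macrophages, mesenchymal cells, mural cells, endothelial cells and neurons were within 1 SD of the level in red blood cells and are not read as expression above free RNA. The same free RNA gives a higher CPM in cells with fewer UMIs, so a level above that of red blood cells does not by itself separate expression from free RNA. The counts of UMIs behind the genes were 519 for Dll1, 1014 for Notch3, 1826 for Jag1, 1895 for Hey1, 4010 for Heyl, 4101 for Notch1, 8389 for Hes1, 15127 for Notch2 and 34083 for Hes5.

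Among the receptors, Notch3 was the most restricted. In Mural cells it stood at 391 and 379 CPM in the control libraries, 435 and 324 CPM after naris occlusion, and 366 and 440 CPM after training. All 6 lay above the highest astrocyte library, at 23.6 CPM, and 46.7% of mural cells had a Notch3 UMI. Mural cells were 1.80% of annotated cells and held 67.0% of all Notch3 UMIs. In astrocytes the level of 17.9 ± 3.8 CPM lay above that of endothelial cells (8.6 ± 4.0 CPM) in 6 of 6 libraries. Myelinating oligodendrocytes had no Notch3 UMI in 858 cells, which allows a share of cells with a UMI, not of cells expressing the gene, of up to 0.350%.

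Notch1, the receptor named with arterial fate and stem cell upkeep, was spread more widely. In Mural cells it stood at 130 and 152 CPM in control, 182 and 155 CPM in naris occlusion and 151 and 222 CPM in trained libraries. All 6 values exceeded the highest endothelial library, 127 CPM. Endothelial cells (97.6 ± 18.4 CPM), astrocytes (90.4 ± 13.9 CPM), oligodendrocyte precursors (78.5 ± 23.4 CPM) and ensheathing cells (74.6 ± 5.1 CPM) followed in an order whose neighbours did not differ beyond their spread. Below them, macrophages stood at 29.4 ± 10.2 CPM and neurons at 15.1 ± 2.0 CPM, the neuronal level lying within 1 SD of that in red blood cells.

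Notch2 had a different order, led by ensheathing cells at 478 and 394 CPM in control, 426 and 460 CPM in naris occlusion and 437 and 388 CPM in trained libraries. Mesenchymal cells followed at 303 ± 107 CPM, lower than ensheathing cells in each library although the ranges overlapped. Markers of ensheathing cells summed to 6666 to 10638 CPM in mesenchymal cells over libraries. They were highest in control replicate 1 and lowest in control replicate 2, as was Notch2. In naris occlusion libraries the markers summed to 7681 and 8050 CPM while Notch2 stood at 375 and 265 CPM, in the opposite order. In trained libraries the markers summed to 8358 and 8973 CPM and Notch2 stood at 288 and 357 CPM, in the same order. The part of ensheathing cell RNA in the Notch2 level was not tested. Macrophages (199 ± 28.7 CPM) and astrocytes (179 ± 29.0 CPM) did not differ beyond their spread. Monocytes stood at 147 ± 22.1 CPM and microglia at 124 ± 22.4 CPM, whereas endothelial cells (47.5 ± 11.5 CPM) and oligodendrocyte precursors (mean 20.6 CPM, from 11.3 to 38.2 CPM) were low. The mean level in precursors was that in red blood cells, also 20.6 CPM.

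Of the ligands, Jag1 followed the vessels. In Mural cells it stood at 149 and 156 CPM in control, 116 and 147 CPM in naris occlusion and 165 and 150 CPM in trained libraries. Each was above the highest endothelial library (84.1 CPM), and endothelial cells (67.3 ± 14.9 CPM) were above astrocytes (41.2 ± 11.6 CPM) in 6 of 6 libraries. A Jag1 UMI was found in 22.0% of mural cells, 9.18% of endothelial cells and 0.25% of microglia.

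Dll1, a Delta ligand that newborn neurons and precursors are known to present, was low everywhere. Its level in oligodendrocyte precursors was 38.2 and 19.6 CPM in control, 52.0 and 24.0 CPM in naris occlusion and 51.9 and 17.0 CPM in trained libraries. These rest on 41 UMIs in 397 cells, and the 3 replicate 1 libraries were the 3 highest. No precursor library overlapped those of neurons (8.2 ± 1.8 CPM), the next class in the order. Below the precursors, neighbouring classes did not differ beyond their spread.

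**Figure D2:**
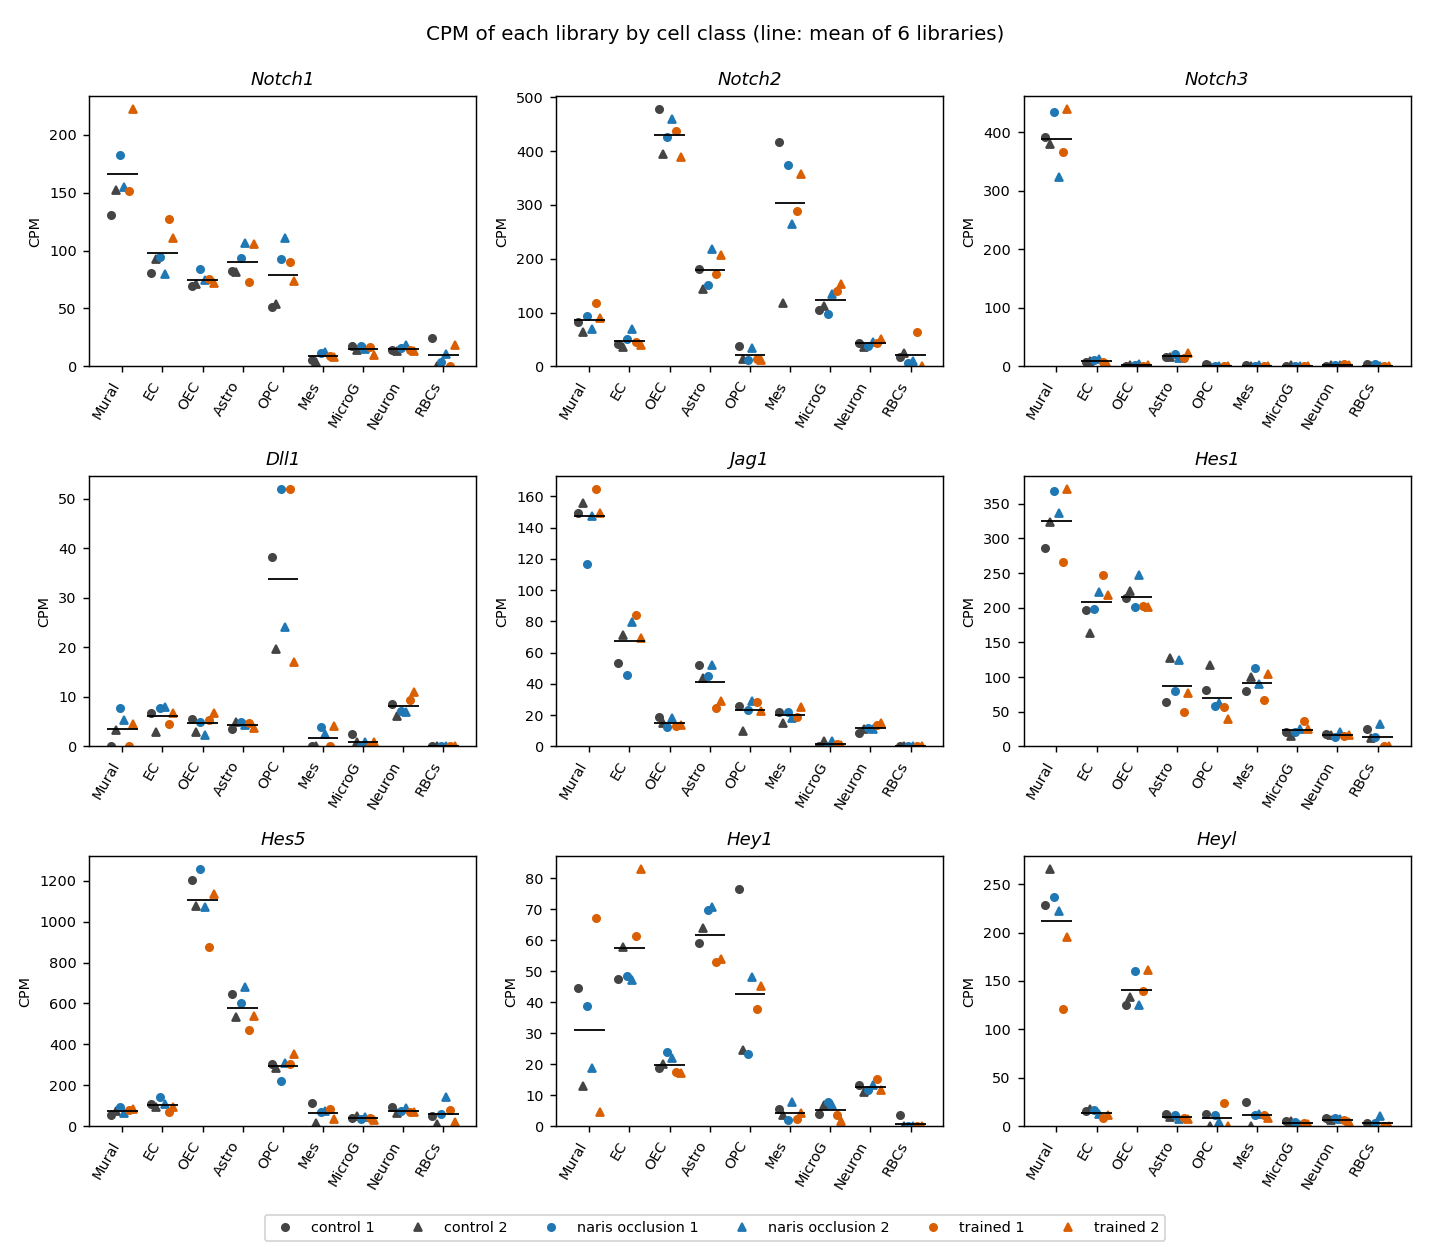
CPM of the 9 genes in each library for 9 cell classes, one panel a gene, with linear axes from 0; circles and triangles are replicates 1 and 2, colours are the groups, and lines are means of 6 libraries. Mural points for Notch1, Notch3, Jag1 and Hes1 do not overlap those of the next class, and ensheathing cell points for Hes5 (875 to 1259 CPM) lie above all astrocyte points (468 to 681 CPM).

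Of the targets, Hes1, a repressor that many signals besides Notch are known to raise, stood in Mural cells at 286 and 324 CPM in control, 369 and 337 CPM in naris occlusion and 266 and 372 CPM in trained libraries. Ensheathing cells (215 ± 18.4 CPM) and endothelial cells (208 ± 28.4 CPM) came next and did not differ beyond their spread. They were followed by mesenchymal cells (92.1 ± 16.8 CPM), astrocytes (87.1 ± 31.7 CPM) and precursors (69.1 ± 27.1 CPM), again without a gap beyond the spread.

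Hes5, the target used as a readout of Notch activity in neural stem cells and glia, stood in ensheathing cells at 1201 and 1077 CPM in control, 1259 and 1073 CPM in naris occlusion and 875 and 1137 CPM in trained libraries. Astrocytes had 579 ± 79.5 CPM and oligodendrocyte precursors 294 ± 42.8 CPM. None of these 3 glial classes overlapped its neighbour. After each cell was thinned to 500 UMIs, a Hes5 UMI remained in 32.2% of ensheathing cells, 20.1% of astrocytes and 16.1% of precursors, against 2.28% of red blood cells and 3.68% of neurons. Before thinning the shares were 58.6%, 40.6%, 40.3%, 10.5% and 8.40% in the same order.

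Heyl, a Hey family repressor, was found in a pair of classes. Mural cells had 229 and 266 CPM in control, 237 and 222 CPM in naris occlusion and 121 and 195 CPM in trained libraries. Ensheathing cells had 126 and 133, 160 and 125, and 139 and 162 CPM in the same groups. Only in trained replicate 1 was Heyl higher in ensheathing cells. Endothelial cells, at 14.0 ± 3.6 CPM, were 10.1 times lower than ensheathing cells, and among the classes below them the only neighbours that differed beyond their spread were neurons over microglia.

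Hey1, a Notch target of arterial endothelium that is also found in neural precursors, had no clear leading class. Astrocytes stood at 61.7 ± 7.7 CPM, endothelial cells at 57.5 ± 13.8 CPM, oligodendrocyte precursors at 42.5 ± 19.6 CPM and Mural cells at 31.1 ± 23.4 CPM, and no neighbours in this order differed beyond their spread. Precursors were highest in control replicate 1, Mural cells in trained replicate 1 and endothelial cells in trained replicate 2.

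Single clusters within a class differed for several genes. In Mural1 (158 cells) Hey1 stood at 76.5 ± 50.3 CPM against 6.3 ± 6.6 CPM in Mural2 (769 cells). Notch2 went the other way, at 33.6 ± 24.6 against 112 ± 33.4 CPM. Notch3 was present in both, at 313 ± 80.3 and 432 ± 47.3 CPM. Mural1 also carried endothelial markers, 5 of 5 above 20 CPM with a sum of 5131 to 6845 CPM over libraries, against 156 to 492 CPM and 4 of 5 in Mural2. Notch4, an endothelial receptor, stood in Mural1 at 43.2 CPM and Dll4, an arterial ligand, at 34.9 CPM. Over libraries Mural1 held 11 to 42 cells with a median of 2928.5 to 4182 UMIs, against a median of 1194 to 1614 UMIs in Mural2. The part of endothelial RNA and of depth in these levels was not tested.

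The endothelial clusters differed in glial genes. EC2 (1124 cells) had 318 ± 99.5 CPM of Hes5 and 123 ± 41.0 CPM of Notch2, against 47.9 ± 6.6 and 27.5 ± 9.5 CPM in EC1 (2524 cells). Markers of ensheathing cells summed to 5092 to 10315 CPM in EC2 and 629 to 1114 CPM in EC1, with 5 of 5 and 4 of 5 above 20 CPM, and the part of their RNA in these levels was not tested. Hes1 went the other way, at 228 ± 31.6 CPM in EC1 and 123 ± 27.3 CPM in EC2, as did Jag1, at 71.2 and 49.6 CPM. Over libraries EC2 cells had a median of 706 to 870.5 UMIs and 12.8% to 18.4% mitochondrial UMIs, against 1401.5 to 1808.5 UMIs and 7.62% to 9.27% in EC1, and the part of depth and RNA quality in these contrasts was not tested.

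Among ensheathing cells Hes5 ran from 573 ± 93.0 CPM in OEC3 to 1479 ± 158 CPM in OEC2, and Hes1 from 88.2 ± 23.1 CPM in OEC3 to 442 ± 66.4 CPM in OEC5. OEC3 cells had a median of 754 to 932 UMIs and 15.5% to 19.6% mitochondrial UMIs over libraries, against 1938 to 2821.5 UMIs and 9.10% to 10.5% in OEC2 and 2099 to 2798.5 UMIs and 8.67% to 10.5% in OEC5, whose part in these levels was not tested. Astro1, the largest astrocyte cluster, had 674 ± 88.4 CPM of Hes5 and 152 ± 27.2 CPM of Notch2. Astro2 had less Hes5 (199 ± 74.8 CPM) and more Notch2 (556 ± 210 CPM), each in 6 of 6 libraries. In mesenchymal cells Hes1 stood at 195 ± 39.8 CPM in Mes2 and 31.3 ± 17.9 CPM in Mes1, also in 6 of 6 libraries.

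**Figure D3:**
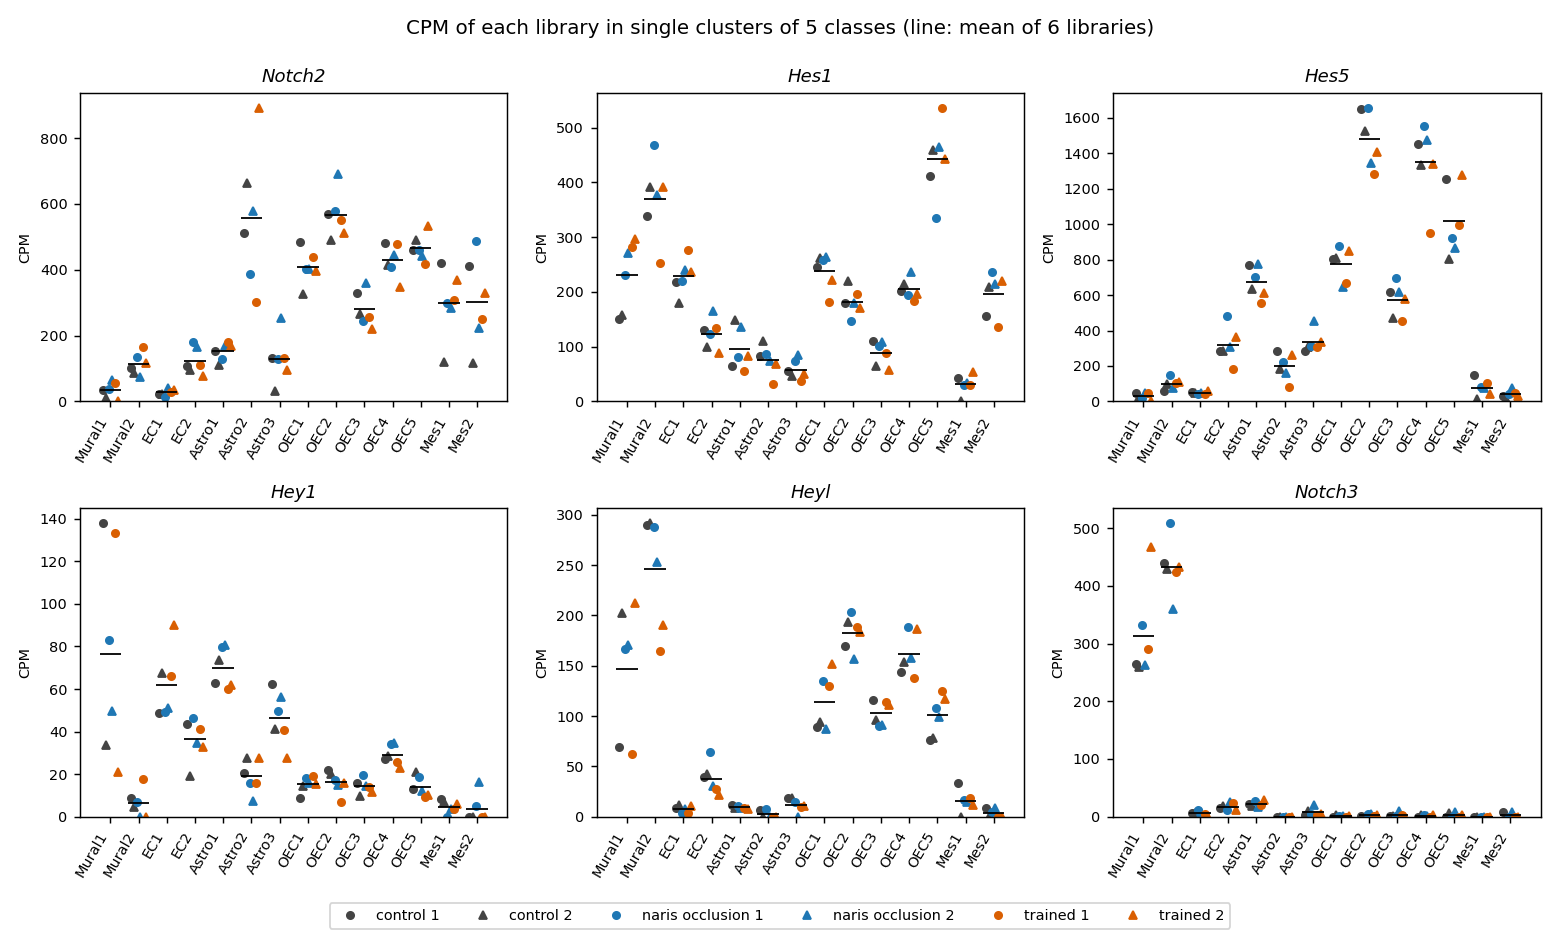
CPM of 6 of the genes in each library for single clusters of Mural, EC, Astro, OEC and Mes, with linear axes from 0 and lines at the mean of 6 libraries. Hes5 is higher in EC2 than in EC1 and Hes1 is higher in Mes2 than in Mes1 in all 6 libraries.

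Neuronal clusters had low levels of most of the genes. Notch2 was highest in granule cell cluster n09-GC-3, at 93.3 and 237 CPM in control, 196 and 88.9 CPM in naris occlusion and 43.4 and 199 CPM in trained libraries, from 54 UMIs in 273 cells. In immature neurons (n04-Immature, 3910 cells) Notch2 stood at 20.1 ± 6.0 CPM, which all 6 libraries of n09-GC-3 exceeded. The transitional cluster n06-Transition had 93.2 ± 13.8 CPM of Notch2 and the granule cell cluster n07-GC-2 had 56.5 ± 20.1 CPM. Markers of ensheathing cells, where Notch2 was highest, had mean sums of 1266 CPM in n09-GC-3, 1946 CPM in n06-Transition and 1676 CPM in n07-GC-2 against 654 CPM in n04-Immature, and their part in these Notch2 levels was not tested. Notch1 was 21.7 ± 4.6 CPM in immature neurons and 20.5 ± 8.4 CPM in n06-Transition, against 3.7 ± 2.8 CPM in n11-GC-5, which was lower than immature neurons in 6 of 6 libraries.

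Dll1 reached 22.1 ± 18.6 CPM in n09-GC-3, from 9 UMIs, and stood at 10.3 ± 3.4 CPM in immature neurons. Hes5 was 145 ± 24.6 CPM in n13-AstrocyteLike and 148 ± 104 CPM in n14-GC-7, with a wide spread in the second. In n13-AstrocyteLike the astrocyte markers summed to 1244 to 1748 CPM, the highest of the 18 neuronal clusters, against 8193 to 9202 CPM in the Astro class. The ensheathing cell markers there summed to 2052 to 4747 CPM, and in n14-GC-7 the ensheathing cell markers summed to 1918 to 3358 CPM and the astrocyte markers to 593 to 1103 CPM. Their part in the Hes5 levels was not tested. Heyl and Notch3 were at most 16.9 and 5.1 CPM in any neuronal cluster.

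**Figure D4:**
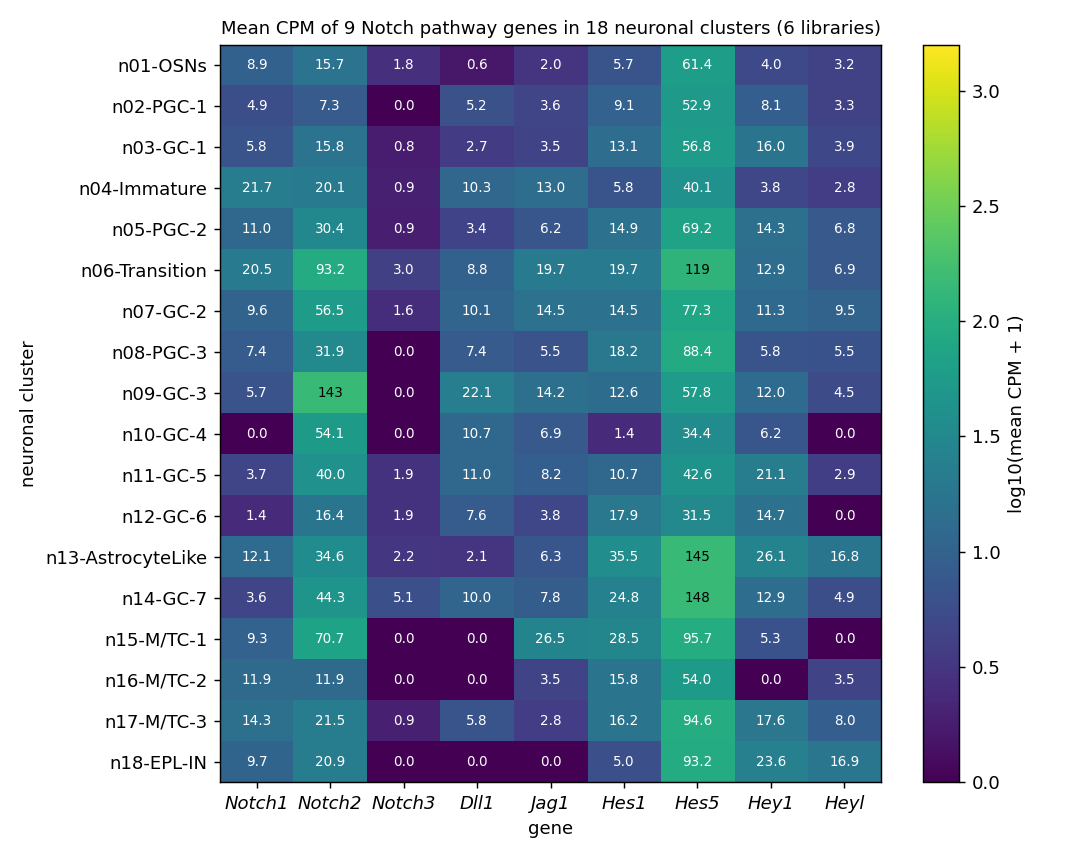
Mean CPM over 6 libraries of the 9 genes (columns) in 18 neuronal clusters (rows), coloured as log10(mean CPM + 1). Notch2 peaks in n09-GC-3 (143 CPM) and n06-Transition (93.2 CPM), and Hes5 exceeds 140 CPM only in n13-AstrocyteLike and n14-GC-7.

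Other genes of the pathway were read from a list of 50, of which 48 had a row. Of these, 7 had their highest class in endothelial cells, among them Notch4 (62.6 ± 16.7 CPM), Dll4 (39.6 ± 11.1 CPM) and Jag2 (30.1 ± 6.2 CPM), a Jagged ligand. Another 5 were highest in ensheathing cells, among them Nrarp (303 ± 43.5 CPM), a feedback inhibitor that Notch itself induces, and Hey2 (272 ± 9.9 CPM). Lfng, a Fringe glycosyltransferase that changes which ligands a receptor answers to, was highest in astrocytes (294 ± 25.8 CPM), with 362 ± 39.4 CPM in Astro1. Dlk1, a Delta-like ligand without the usual receptor-binding domain, was also highest there (13.7 ± 6.2 CPM). Mfng, another Fringe, was highest in microglia (82.8 ± 8.7 CPM), Hes6, which opposes Hes1, in oligodendrocyte precursors (71.3 ± 12.2 CPM), and Rbpj itself in macrophages (116 ± 16.6 CPM).

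The genes whose levels followed each member most closely over the 38 clusters were found by Pearson's r of log2(CPM + 10) among 12597 genes. They were Atp13a5 (r = 0.973) and Tbx3os1 (0.962) for Notch3, Mmd2 (0.971) and Cyp2j9 (0.965) for Hes5, and Vtn (0.940) and Plce1 (0.936) for Heyl. For Hes1 they were Rhoc (0.914) and Cdc42ep4 (0.898), for Notch2 Sdc4 (0.897) and Il11ra1 (0.876), and for Jag1 Ackr3 (0.865) and Il17rd (0.864). Notch1 had Spata6 (0.837) and Afap1l2 (0.831), Dll1 had Zfp882 (0.773) and Nob1 (0.760), and Hey1 had Ptprg (0.767) and Myo10 (0.754). Among the 9 genes themselves, the closest pairs were Notch1 with Jag1 (0.781), Hes1 with Heyl (0.778) and Notch3 with Jag1 (0.768). Clusters share libraries and free RNA, so these are descriptions.

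Whether odour deprivation or training changed these genes was examined in 8 cell populations, Mural, EC, OEC, Astro, OPC, Mes, MicroG and n04-Immature, with edgeR's quasi-likelihood test on counts summed per library. No member passed an adjusted p of 0.05 in either comparison, among 48 tests of a member in a population that passed the filter on low counts, of 72 possible. At unadjusted p under 0.05 there were 3 for naris occlusion and 9 for training (6.25% and 18.8%), against 4.4% and 5.98% of all gene tests. Over all genes 22 of 66880 tests passed for naris occlusion (0.0329%) and 31 for training (0.0464%). By population, naris occlusion called 0.0191% of genes in Astro, 0.00828% in OEC, 0.0104% in EC, 0.0701% in Mural, 0.0868% in OPC, 0.107% in n04-Immature and 0 in Mes and MicroG. Training called 0.0287% in Astro, 0.259% in EC, 0.0526% in Mural and 0 in the other 5. DESeq2 gave no member at its adjusted threshold, and 0 and 1 unadjusted of 72 tests in each comparison. It gave no adjusted p after training for members other than Hes1 in EC, or for Notch1, Notch3, Dll1, Jag1 and Hey1 in OEC. With the replicate number as a block the members called stayed at 0 for both, while the counts over all genes became 37 and 83. Both comparisons share the control libraries, each group had 2 libraries, and p-values measure the spread between these libraries. Replicate number coincides with sex in every group, replicate 1 carrying Ddx3y and replicate 2 Xist. The spread within a group therefore includes any sex difference, and the replicate block is also a block for sex.

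In the class where each gene was highest, the fitted log2 differences after naris occlusion ran from -0.23 for Jag1 in Mural cells (SE 0.24) to 0.28 for Dll1 in precursors (SE 0.71). For Notch2 and Hes5 in ensheathing cells the 95% intervals were -0.24 to 0.25 and -0.25 to 0.28 after naris occlusion, and -0.32 to 0.17 and -0.44 to 0.09 after training. Notch3 in Mural cells had intervals of -0.50 to 0.35 and -0.40 to 0.46. For Dll1 in precursors the intervals were far wider, -1.17 to 1.73 and -1.18 to 1.71.

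The lowest p was that of Jag1 in astrocytes after training. Jag1 stood there at 52.0 and 43.7 CPM in control, 45.0 and 52.2 CPM in naris occlusion and 24.7 and 29.3 CPM in trained libraries, so both trained libraries lay below all others. The log2 difference from control was -0.85 (SE 0.22, edgeR adjusted p = 0.256), and leaving out each library gave -0.96 to -0.72. In Astro1 cells alone it was -0.96 (adjusted p = 0.123). Astrocytes of trained replicate 1, where Jag1 was lowest, had 16.4% mitochondrial UMIs and a median of 900.5 UMIs, against 11.7% to 14.2% and 1192.5 to 1581 UMIs in the other 5 libraries, whose part in the result was not tested. Astro3, which has less Jag1 (25.2 against 45.0 CPM in Astro1), was 49.1% and 35.8% of the astrocytes in the trained libraries and 31.4% and 35.1% in control. The test used summed UMIs, of which Astro3 held less than its share of cells. It held 394505 of 1457489 and 179772 of 1057724 astrocyte UMIs in trained libraries. In control it held 272289 of 1690864 and 219124 of 1236754. Hes1 in the same cells stood at 64.5 and 127 CPM in control and 50.1 and 76.6 CPM in trained libraries, which overlap (log2 difference -0.59, SE 0.27, adjusted p = 0.786), although each trained library lay below the control of the same replicate number. With the replicate block it was -0.56 (adjusted p = 0.386), and leaving out each library gave -1.05 to -0.017.

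Heyl in Mural cells, given above by library, had both trained libraries below both controls, with a log2 difference of -0.71 (SE 0.24, adjusted p = 0.638). This depended on the libraries: leaving out each gave -1.06 to -0.38, and without trained replicate 2, at -1.06, the adjusted p was 0.0119, the only call of a member under any alternative, and that fit called 354 gene tests over the 8 populations. In Mural2 alone it was -0.74 (adjusted p = 0.690). Mural markers summed to 10467 CPM in trained replicate 1, where Heyl was lowest, against 14052 to 16872 CPM in the other 5 libraries, and their part in the result was not tested.

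In endothelial cells Notch1 stood at 80.4 and 93.0 CPM in control, 94.5 and 79.7 CPM in naris occlusion and 127 and 111 CPM in trained libraries. The log2 difference after training was 0.50 (SE 0.16, adjusted p = 0.346), with both trained libraries above the other 4. Hes1 (0.40, SE 0.15, adjusted p = 0.458) and Hey1 (0.46, SE 0.21, adjusted p = 0.573) had the same sign, as did Jag1 (0.36) and Notch2 (0.15), whereas Heyl (-0.75, SE 0.41, adjusted p = 0.654), Notch3 (-0.70, SE 0.62, adjusted p = 0.828) and Hes5 (-0.31, SE 0.19, adjusted p = 0.700) had the opposite sign. Notch3 was low there, at 8.5 and 9.5 CPM in control and 8.2 and 1.3 CPM in trained libraries, and passed the filter only through naris occlusion libraries. Leaving out each library gave 0.36 to 0.61 for Notch1, 0.27 to 0.53 for Hes1 and 0.28 to 0.66 for Hey1. In EC1 alone Notch1 was 0.60 (adjusted p = 0.229). Endothelial markers summed to 7872 CPM in the EC class of trained replicate 1, where Notch1 was highest, against 9269 to 10566 CPM in the other libraries. Astrocyte markers there summed to 810 and 597 CPM in control and 586 and 498 CPM after training. Those of ensheathing cells, where Heyl and Hes5 were far higher, summed to 2118 and 1650 CPM in control and 1667 and 1434 CPM after training. EC2 was 34.1% and 32.1% of endothelial cells in control and 33.2% and 23.0% in trained libraries. The part of any of these in the differences after training was not tested. Training called 25 of 9643 genes in endothelial cells (0.259%), none of them from the pathway lists. Notch2 after naris occlusion was 0.60 (SE 0.23, adjusted p = 0.929), 0.37 in EC1 alone (adjusted p = 0.997) and 0.34 to 0.79 with each library left out. Markers of ensheathing cells summed to 2939 and 2514 CPM in the EC class after naris occlusion against 2118 and 1650 CPM in control, and their part in the Notch2 difference was not tested.

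The other unadjusted differences were those of Notch1 after naris occlusion (0.91, SE 0.36, adjusted p = 0.958) and Hes1 after training (-1.003, SE 0.39, adjusted p = 0.891) in oligodendrocyte precursors, Notch2 (0.41, SE 0.17, adjusted p = 0.957) and Hes1 (0.82, SE 0.29, adjusted p = 0.943) after training in microglia, and Hes5 after naris occlusion in immature neurons (0.65, SE 0.24, adjusted p = 1.00). With each library left out these ran from 0.73 to 1.05 and -1.33 to -0.72 in precursors, from 0.32 to 0.50 and 0.50 to 1.09 in microglia, and from 0.31 to 0.91 in immature neurons. Hes1 in microglia stood at 20.2 and 14.3 CPM in control and 37.1 and 24.5 CPM in trained libraries, of which only 37.1 CPM lay more than 1 SD above the red blood cell level. Hes5 in immature neurons stood at 32.3 and 33.3 CPM in control and 41.9 and 61.2 CPM after naris occlusion, all within 1 SD of the red blood cell level. Markers of ensheathing cells summed there to 611 and 521 CPM in control and 772 and 876 CPM after naris occlusion. In oligodendrocyte precursors they summed to 6461 and 5469 CPM in control and 4207 and 4784 CPM after training. Their part in the Hes5 and Hes1 differences was not tested.

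Of the other pathway genes, none was called in 256 tests for either comparison (edgeR), with 9 unadjusted for naris occlusion and 24 for training (3.52% and 9.38%, against 4.4% and 5.98% of all gene tests). The lowest p was that of Lfng in ensheathing cells after training (log2 difference 0.94, SE 0.27, adjusted p = 0.341). Notch4 in endothelial cells was 0.51 after training (SE 0.19, adjusted p = 0.447), and Nrarp in astrocytes was -0.42 after naris occlusion (SE 0.16, adjusted p = 0.926). Both libraries of a group lay outside both controls for 14 of 48 member tests after naris occlusion (29.2%, 12 above and 2 below) and 24 of 48 after training (50%, 14 above and 10 below), where 34% and 34.8% of all gene tests did (18.6% above and 15.4% below, and 17.3% above and 17.4% below). Notch3 in endothelial cells is among the 12 above and the 10 below. It passed the filter on low counts only through its naris occlusion libraries (11.5 and 12.8 CPM, against 8.5 and 9.5 CPM in control), so its side there was favoured by the filter.

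**Figure D5:**
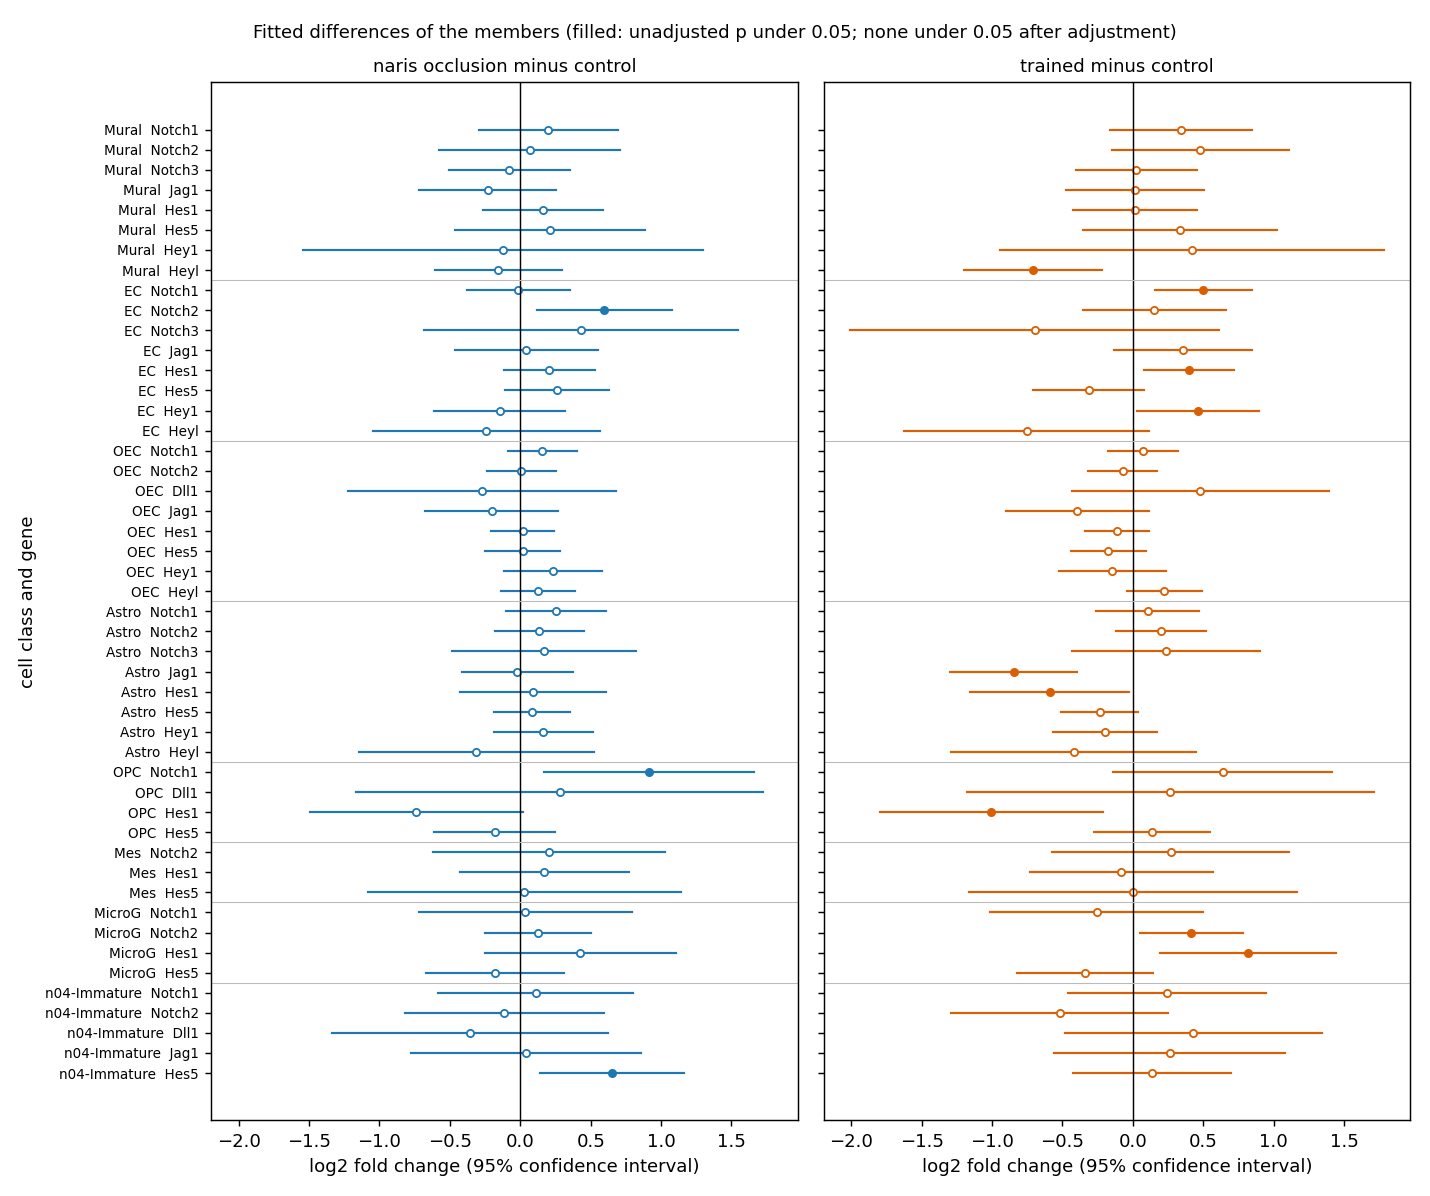
Fitted log2 differences from control (horizontal axis) of each member in each population tested (vertical axis), after naris occlusion and after training, with 95% confidence intervals from edgeR; filled points have an unadjusted p under 0.05. Of 48 points 3 are filled after naris occlusion and 9 after training, and no adjusted p was under 0.05.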

How the data were processed

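Single cells of 6 libraries were captured and sequenced by the authors with 10x 3' version 2 chemistry; the submitters' processing notes name Cell Ranger 2.0.0, Seurat 2.2.1 and the mm10 build. The authors deposited raw UMI counts per gene and barcode, with library, whole-bulb cluster and neuronal cluster names, and no doublet step was added here. Of 52549 barcodes, 1123 without a cluster were left out. The deposited cluster numbers differ from the paper's for several clusters. Library identity was taken from the deposited library column, since cell names of the trained libraries carry the other replicate's prefix. Counts were summed per class or cluster and library, scaled to CPM and tested with edgeR 4.0.16 (R 4.3.3; filterByExpr, TMM, quasi-likelihood, 3 groups in 1 fit, Benjamini-Hochberg within a class, threshold 0.05), and the code was tested on simulated data. Alternatives were DESeq2 1.42.0, a replicate block, no filter, cells of at least 1000 UMIs and each library left out. The largest cluster alone was added after seeing the data. A floor is 3 counts; limits and shares cover counting error only. In summed counts, fewer cells of a type and less RNA per cell cannot be told apart. A second, processed expression table was not used. The members and gene lists were chosen with earlier results of these data known. Besides the 9 members, the text names for each the 2 most similar genes of at least 20 CPM in a cluster, 10 set pathway genes (Notch4, Dll4, Jag2, Dlk1, Hes6, Hey2, Rbpj, Nrarp, Lfng, Mfng) and markers where a label is checked.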

Additional observations from a re-analysis of the deposited data

Results flagged for a closer look

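The 1123 barcodes without a cluster (median 2327 UMIs) were used in no comparison and carried UMIs of every member: 190 of Notch1, 611 of Notch2, 18 of Notch3, 22 of Dll1, 48 of Jag1, 236 of Hes1, 1375 of Hes5, 69 of Hey1 and 128 of Heyl, all above the 3 counts taken as the floor.

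For some members both libraries of a group lay above both controls in one population and below them in another; these differences between populations were not tested, and they were picked from 96 tests of which 38 had groups that did not overlap (29.2% after naris occlusion and 50% after training, against 34% and 34.8% of all gene tests). For Hes1 after naris occlusion, the log2 difference in oligodendrocyte precursors (-0.74) was below that of endothelial cells by 0.95, of Mural cells by 0.90 and of microglia by 1.17. For Hes1 after training, endothelial cells exceeded ensheathing cells by 0.51 and precursors by 1.40, and microglia exceeded them by 0.93 and 1.82. These Hes1 differences rest on few molecules, since a library held 48 to 85 precursors with 172917 to 235422 UMIs in all. In microglia, Hes1 lay within 1 SD of the red blood cell level in every library but trained replicate 1 (37.1 CPM). For Hey1 after training, endothelial cells exceeded astrocytes by 0.66 and ensheathing cells by 0.61. For Heyl after training, ensheathing cells (0.22) exceeded astrocytes by 0.65, endothelial cells by 0.98 and Mural cells by 0.94. For Jag1 after training, immature neurons (0.26) exceeded astrocytes by 1.11 and ensheathing cells by 0.66.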

How the results depend on the processing

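The class with the highest mean level was the same for all 9 members when cells under 1000 UMIs, mitochondrial genes, the manipulated groups or any 1 library were left out; with the mean of single-cell CPM it became endothelial for Hey1, whose astrocyte level was then 50.8 CPM. Scaling without mitochondrial genes raised Hes5 and Notch2 in ensheathing cells to 1240 and 484 CPM and Hey1 in astrocytes to 71.2 CPM. The count of members called was 0 under the other alternatives and 0 to 1 with a library left out. Counts over all genes, 22 for naris occlusion and 31 for training, were 37 and 83 with the replicate block, 166 and 359 without the filter on low counts, 5 for naris occlusion with DESeq2, 54 for training with cells of at least 1000 UMIs, and 22 to 63 and 24 to 354 with each library left out; the cause was not tested.

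Of 18 fold changes followed, 10 changed sign under at least 1 alternative, all of them at most 0.28 in size. With cells of at least 1000 UMIs, Notch2 in ensheathing cells after naris occlusion was -0.043 and Hes1 in Mural cells after training -0.0068. In Mural2 alone, Notch3, Jag1 and Hes1 after training were -0.048, -0.0066 and -0.20. With each library left out, the ranges after naris occlusion were -0.31 to 0.85 for Dll1, -0.10 to 0.12 for Hes5, -0.11 to 0.15 for Notch2 and -0.27 to 0.12 for Notch3. After training they were -0.80 to 0.83 for Dll1, -0.23 to 0.25 for Hes1, -0.36 to 0.0020 for Hes5, -0.063 to 0.080 for Jag1, -0.19 to 0.069 for Notch2, -0.10 to 0.16 for Notch3 and -1.06 to -0.38 for Heyl.

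Same-numbered libraries correlated in their deviations from the group means by -0.010 to 0.25 over 8 populations and 3 pairs of groups, above 0.1 for every pair only in Astro, OEC and n04-Immature, and the block changed no other call than the counts given. A library left out leaves 1 in its group, assumed to vary like the others. Depth limits Dll1, with 41 UMIs in precursors, and also Hes1 and Notch1 in precursors, of which a library held 48 to 85 cells.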

Other observations

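Hey1 in Mural cells separated the libraries by replicate number rather than by group, which was noticed after the values were seen and not tested. Replicate 1, the libraries with Ddx3y, stood at 44.5 CPM in control, 38.8 CPM in naris occlusion and 67.2 CPM in trained, and replicate 2, the libraries with Xist, at 13.0, 18.7 and 4.5 CPM. In Mural1 alone, where 49 of the 56 Hey1 UMIs lay, the values were 138, 83.2 and 133 CPM against 33.7, 49.8 and 21.2 CPM. The value of 21.2 CPM, in trained replicate 2, comes from 11 cells with 47173 UMIs in all. Mural1 was 13.1%, 20.9% and 23.5% of the mural cells in replicate 1 and 14.3%, 19.4% and 9.17% in replicate 2.

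The small cluster N2 was named as neuronal but had 510 CPM of Hes5, 96.9 CPM of Heyl, 232 CPM of Notch2 and 301 CPM of Hey2, in 68 cells. The 5 ensheathing cell clusters stood at 573 to 1479 CPM of Hes5, 101 to 183 CPM of Heyl, 279 to 565 CPM of Notch2 and 170 to 306 CPM of Hey2. Its ensheathing cell markers summed to 10960 to 20505 CPM and its immature neuron markers to 2623 to 4961 CPM, with 5 of 5 above 20 CPM in each list.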
